A study of Mus musculus with 2 samples.

Results

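Regulatory T cells (Treg cells) of tissues carry, beside the programme that restrains other lymphocytes, a set of genes linked to wound repair and to type 2 immunity. A group of 8 such genes is described here across the T cells of a transplanted mouse tumour: Areg, Il1rl1, Penk, Il5, Il13, Il10, Gata3 and Maf, which are 8 of the 32285 genes in the deposited count matrices. They were chosen by their summed levels over the cell classes of these same libraries, so that those levels are given as a description. The tumours were MB49, a mouse bladder tumour line, collected on day 14 after transplant from C57BL/6J mice aged 12 to 14 weeks. There was 1 library from female and 1 library from male mice, and the number of mice behind each was not given. Cells sorted as viable CD4+ T cells went into a droplet kit for the 5′ end of transcripts, 10000 to 20000 of them per library, and each counted molecule carries a unique molecular identifier (UMI).

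Areg encodes amphiregulin, a ligand of the EGF receptor through which Treg cells are known to act on epithelium and on muscle repair. Il1rl1 encodes ST2, the receptor of the alarmin IL-33, and Gata3 encodes the transcription factor that directs type 2 cytokine genes and also works in tissue Treg cells. Penk encodes proenkephalin, the precursor of enkephalin opioid peptides. Il10 encodes the suppressive cytokine IL-10, which the transcription factor c-Maf, product of Maf, helps to switch on. Il5 and Il13 encode type 2 cytokines made mainly by T helper 2 cells and group 2 innate lymphoid cells.

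Because Gata3 and Maf encode transcription factors and Il1rl1, Il5 and Il13 are textbook type 2 genes, the letters before their starts are shown, read from the RefSeq promoter table on GRCm38.p6, which held 5 of the 8 genes. Il1rl1 has 2 annotated starts, and the window of 250 bases before the first one (chr1:40429320-40429569, plus strand) carried 5 words of the GATA type, in capitals. The words searched were GATA with an A or T before it and an A or G after it, on either strand. At least 5 of them occurred in 0.0426% of 32851 windows of this length, and at least 1 in 26.5%. The window before the second start (chr1:40439379-40439628, plus strand), which lies inside the gene, carried 1. The counts per gene do not tell from which start a UMI came.
Il1rl1 first start: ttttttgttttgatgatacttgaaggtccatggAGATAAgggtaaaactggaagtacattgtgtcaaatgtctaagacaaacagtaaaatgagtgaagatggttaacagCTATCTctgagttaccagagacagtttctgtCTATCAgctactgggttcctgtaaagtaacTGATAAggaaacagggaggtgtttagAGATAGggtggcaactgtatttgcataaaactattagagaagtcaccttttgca
Il1rl1 second start: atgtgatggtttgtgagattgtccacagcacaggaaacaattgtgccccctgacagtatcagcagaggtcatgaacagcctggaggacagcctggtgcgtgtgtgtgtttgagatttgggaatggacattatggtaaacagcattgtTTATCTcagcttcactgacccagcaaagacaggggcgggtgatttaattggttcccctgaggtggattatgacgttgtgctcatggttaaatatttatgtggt
The type 2 cytokine genes each carried 1 such word, shown in the 140 bases before the start of Il13 (chr11:53634703-53634842, minus strand) and of Il5 (chr11:53720654-53720793, plus strand). These genes lie 86091 bases apart, with Rad50 as the protein-coding gene between them.
Il13: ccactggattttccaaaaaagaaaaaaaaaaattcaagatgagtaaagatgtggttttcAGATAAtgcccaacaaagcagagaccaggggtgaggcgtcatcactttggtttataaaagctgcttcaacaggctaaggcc
Il5: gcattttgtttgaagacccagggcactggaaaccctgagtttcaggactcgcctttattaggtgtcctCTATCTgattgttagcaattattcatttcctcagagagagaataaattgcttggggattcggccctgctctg
The Areg window (chr5:91139459-91139598, plus strand) held no GATA word and held TGACGTCA, the full cyclic AMP response element, 61 to 54 bases before the start. This element was found in 1.55% of windows.
Areg: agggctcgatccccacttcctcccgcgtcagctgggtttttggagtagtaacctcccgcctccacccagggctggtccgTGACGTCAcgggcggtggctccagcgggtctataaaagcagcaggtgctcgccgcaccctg
The Gata3 window of 250 bases (chr2:9878601-9878850, minus strand), which lies inside the annotated gene, held neither word. TGCTGA, part of the element that Maf factors bind, was searched on either strand in the same windows and stood 1 time each in those of the second Il1rl1 start, Gata3, Areg and Il13, and at least 1 time in 16.1% of all windows. The AP-1 word TGANTCA was in none of the windows of these genes and in 6.75% of all. No word of 1 kind overlapped a word of another in them. A match is a description of letters and not a site of binding.

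Of the 7366 barcodes, those with 500 or more genes and no more than 10% mitochondrial UMIs were used, 3468 female and 3519 male ones. Treg cells were barcodes with at least 1 Foxp3 UMI and no Cd8a or Cd8b1 UMI, and numbered 578 (233 female, 345 male). Of these, 327 had a UMI of Klrg1, which encodes an inhibitory lectin-like receptor, and 251 had none. The other classes were 839 barcodes with Foxp3 and at least 2 Cd8 UMIs (375 female, 464 male), 479 other Cd4 cells with Cd4 and no Foxp3 or Cd8 UMI (248 female, 231 male), and 4185 Cd8 cells with at least 2 Cd8 UMIs and no Foxp3 (2245 female, 1940 male). A further 906 barcodes fell in no class. Thus 5024 of the 6987 kept barcodes (71.9%) had at least 2 Cd8 UMIs, against the label of a CD4+ sort. The Treg label was checked on genes the rule did not use. Ikzf2, a Treg transcription factor, was detected in 93.6% of Treg and 24.8% of other Cd4 cells, and Il2ra, the IL-2 receptor chain CD25, in 77.5% and 13.8%. Cd4 itself was detected in 60.4% of Treg cells.

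Depth differed between classes. The median was 6204.5 UMIs in Treg cells, 6579 in Klrg1-positive and 5488 in Klrg1-negative Treg cells, 5206 in other Cd4 cells and 9709 in Cd8 cells. It was 35258 in the barcodes with Foxp3 and Cd8, of which 76.3% had more than 20000. Levels are counts per 1000000 UMIs summed over the class (CPM), and intervals are 95% and cover counting error only. With 1 library per sex nothing has a replicate check, so ratios were given without a test and were called from 1.5-fold on. Barcodes with at least 5 Krt8 and Krt18 UMIs and 0 UMIs of Cd3 genes (55, median 44556 UMIs, 1 of them with Foxp3 and so also in the Treg class) were read as well. They had 0 UMIs of Areg, Penk, Il10, Il5 and Il13, 1 of Il1rl1, 27 of Gata3 (10.7 CPM, in 21.8% of cells) and 9 of Maf (3.58 CPM, in 16.4%). Asking for 0 Cd3 UMIs leaves out barcodes that took up free Cd3 RNA, so these counts give no background level of free RNA. Whether the Gata3 and Maf UMIs were the barcodes' own RNA was not tested.

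Areg, Il1rl1, Il10 and Maf stood highest in Treg cells of both libraries. Against other Cd4 cells, 5 of the 8 genes were higher by at least 1.5-fold and 2 were lower, with 17.8% of all 8142 measured genes higher and 10.1% lower. The higher ones were Il10, Areg, Maf, Il1rl1 and Penk, the lower ones Il13 and Il5, and Gata3 was within 1.5-fold. In all, 7 of the 8 passed the filter on low counts in that comparison (at least 10 CPM in 1 class and 20 UMIs over both), and Il5 did not. Since the genes were chosen with this contrast known, nothing is read from these counts.

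Areg, the EGF receptor ligand, stood in Klrg1-positive Treg cells at 725 CPM in female and 965 CPM in male cells. In Klrg1-negative Treg cells it was at 242 and 676 CPM, in other Cd4 cells at 187 and 180.0 CPM and in Cd8 cells at 53.7 and 58.6 CPM. Barcodes with Foxp3 and Cd8 had 216 and 253 CPM. Klrg1-positive Treg cells were the highest class in each library, and within each library both Treg classes lay above the 3 others. Over both libraries, Areg was higher in Treg than in other Cd4 cells by 1.93 on the log2 scale (1.80 to 2.07), with 1.47 for female and 2.24 for male cells. The female value rests on 1 other Cd4 cell, which held 217 of the 296 Areg UMIs of its class. Without the richest other Cd4 cell of each library the ratio was 3.37 (3.04 to 3.72) for female and 2.89 (2.66 to 3.14) for male cells, an alternative chosen after seeing the data. Areg RNA was uneven among cells: 46.2% of Treg cells had a UMI, those had a mean of 11.7 and a median of 5, and the richest 10% of cells held 70.8% of all Areg UMIs.

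Il1rl1, the IL-33 receptor, was at 81.3 CPM in female and 32.1 CPM in male Klrg1-positive Treg cells. Klrg1-negative Treg cells had 38.4 and 37.8 CPM, other Cd4 cells 15.8 and 15.2 CPM, barcodes with Foxp3 and Cd8 13.1 and 7.33 CPM, and Cd8 cells 2.11 and 1.70 CPM. The 4 Treg values lay above all others, and the female Klrg1-positive cells stood apart from the other 3. The ratio of Treg to other Cd4 cells was 1.61 on the log2 scale (1.14 to 2.10), with 2.0 for female and 1.17 for male cells. Other genes of the IL-33 receptor pathway did not share this pattern: of 8 measured, 2 were higher in Treg cells, Il1rl1 itself and the kinase gene Irak2 (log2 1.247, 0.98 to 1.52), and 1 was lower, the co-receptor gene Il1rap (log2 -0.92, -1.70 to -0.15). The median of the list was -0.04, against 0.08 over all measured genes.

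Penk, the enkephalin precursor, was at 431 CPM in female and 859 CPM in male Klrg1-positive Treg cells. Klrg1-negative Treg cells had 64.0 and 306 CPM, barcodes with Foxp3 and Cd8 189.6 and 267 CPM, other Cd4 cells 189 and 168 CPM, and Cd8 cells 84.9 and 193 CPM. The Klrg1-positive Treg cells were the highest class in each library. The female Klrg1-negative Treg cells were the lowest value, but without 2 keratin-rich barcodes, described with the Klrg1 split, they stood at 88.3 CPM, above the female Cd8 cells. The Treg to other Cd4 ratio of 1.40 (1.26 to 1.54) was 0.54 in the female library, where it did not reach 1.5-fold, and 1.92 in the male library. Penk was concentrated in few cells: 16.8% of Treg cells had a UMI, with a mean of 21.7 and up to 138 in 1 cell, and the richest 10% of cells held 95.7% of the UMIs. The plot of UMIs per Treg cell shows this beside the flatter spread of Gata3 and Maf.

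Il10 was at 96.1 CPM in female and 133 CPM in male Klrg1-positive Treg cells, and at 50.1 and 124 CPM in Klrg1-negative ones. Other Cd4 cells had 12.0 and 23.9 CPM, barcodes with Foxp3 and Cd8 22 and 36.8 CPM, and Cd8 cells 1.55 and 2.46 CPM. All 4 Treg values were above the rest, and in every class the male library was higher than the female one. The ratio of Treg to other Cd4 cells was 2.58 (2.17 to 3.03), the highest of the 8, and similar in the libraries (2.67 female, 2.43 male). In 5 groups of Treg cells of rising depth, the Il10 level fell from group to group, from 324 CPM over 162, 134 and 81.7 to 50.01 CPM, while the share of cells with a UMI stayed between 22.4% and 30.2%. The level of Il10 thus moved with the depth of its cells, whose median was 3205.5 UMIs in the first group and 12928.5 in the last. Penk moved the other way, with 108, 229, 484, 443 and 622 CPM over the same groups, and Klrg1-positive Treg cells, where it was highest, were the deeper ones (6579 against 5488 UMIs). The part of depth in the Penk and Il10 ratios was not tested.

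Maf, whose product c-Maf acts upstream of Il10, was the most widely detected of the 8 genes, with a UMI in 72.8% of Treg cells. It stood at 398 CPM in female and 479 CPM in male Klrg1-positive Treg cells, at 241 and 322 CPM in Klrg1-negative ones, at 137 and 99.4 CPM in other Cd4 cells, at 101 and 114 CPM in barcodes with Foxp3 and Cd8, and at 12.5 and 13.3 CPM in Cd8 cells. The order was the same in the libraries except that other Cd4 cells and barcodes with Foxp3 and Cd8 changed places. The Treg to other Cd4 ratio was 1.66 (1.49 to 1.82). On the list of Il10 and its regulators, 5 of 10 measured genes were higher in Treg cells and 0 lower, Il10 and Maf included, as were Ebi3, a subunit of IL-35 and IL-27 (log2 1.65), and Prdm1, the factor Blimp-1 (log2 1.54).

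Gata3 was the exception among the detected genes. It was at 121 CPM in female and 105 CPM in male Klrg1-positive Treg cells and at 68.7 and 87.8 CPM in Klrg1-negative ones, against 117 and 110.3 CPM in other Cd4 cells. Treg and other Cd4 values thus overlapped, and the ratio was -0.21 (-0.42 to -0.01), below 1.5-fold. Barcodes with Foxp3 and Cd8 had 64.4 and 60.1 CPM and Cd8 cells 49.3 and 49.8 CPM, both lower than Klrg1-positive Treg and other Cd4 cells in each library.

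**Figure D1:**
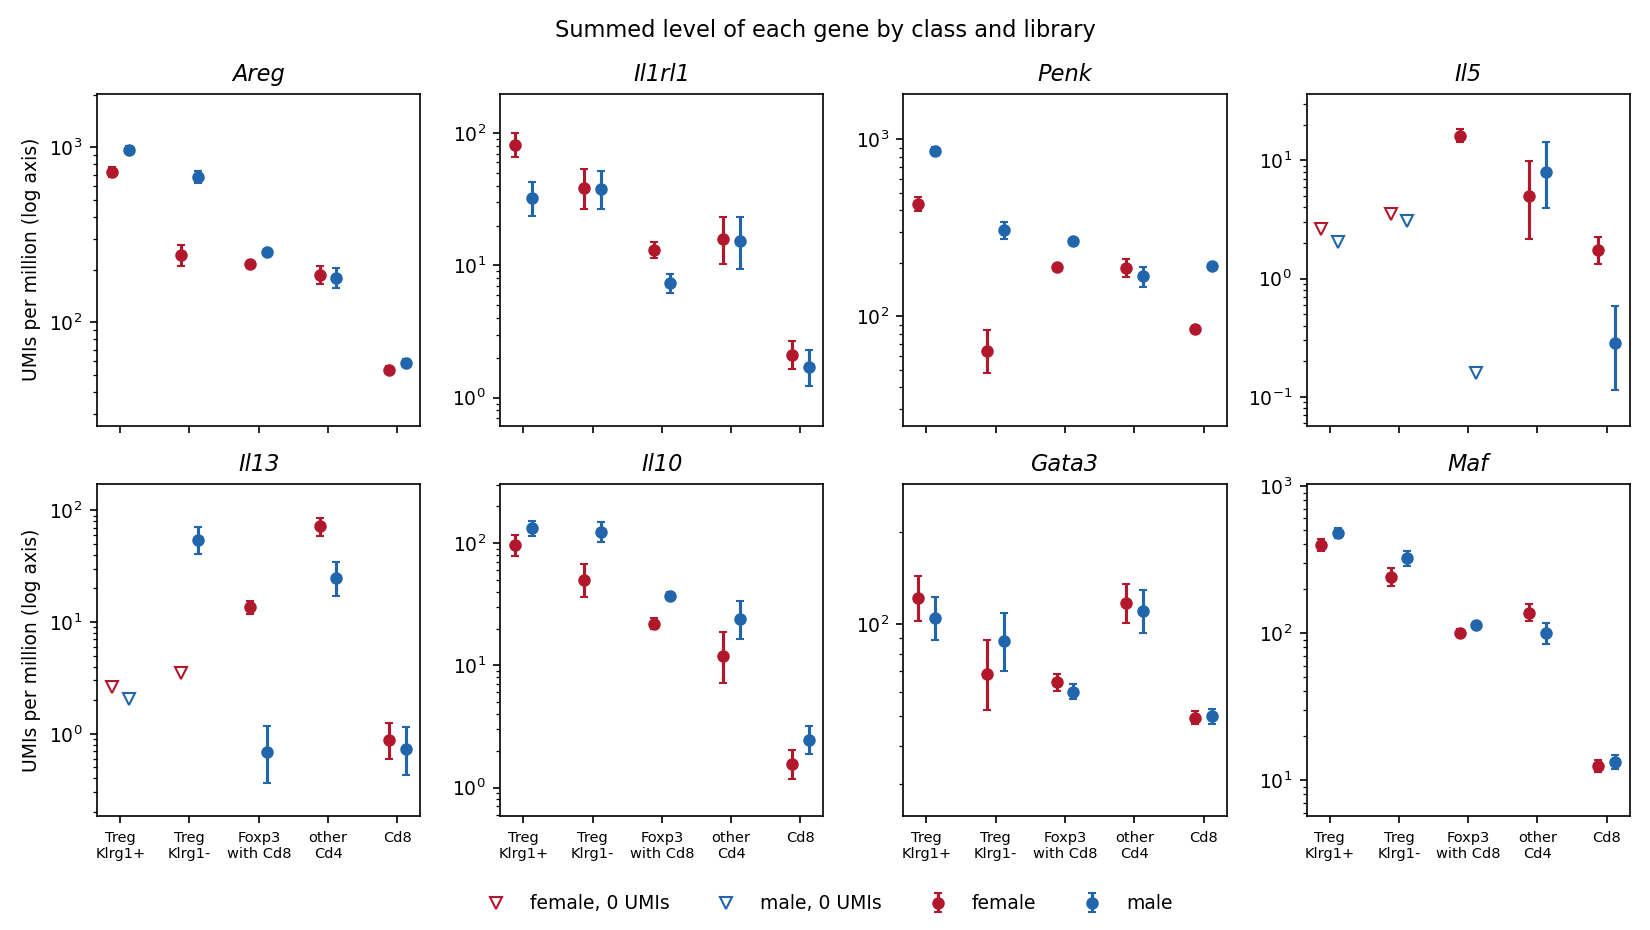
Summed level of each gene in CPM (log axis) by class and library, with exact 95% Poisson intervals, where an open triangle marks a class with 0 UMIs at the level of 3 counts. Areg, Il1rl1, Il10 and Maf were highest in Treg cells, Gata3 was as high in other Cd4 cells (117 and 110.3 CPM), and Il5 and Il13 had no steady order.

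Il5 and Il13 were nearly undetected in Treg cells at this depth. Il5 had 0 UMIs in 578 Treg cells, which by a limit of 3 counts allows a share of up to 0.519% of cells with a UMI, and its level was at least 9.50-fold lower than in other Cd4 cells (3 counts set for the 0). Over all kept barcodes, Il5 had 342 UMIs in 12 barcodes and Il13 had 476 UMIs in 33 barcodes, with 5 barcodes holding both. The 3 richest barcodes held 89.8% of the Il5 and 75.0% of the Il13 UMIs. One female barcode with Foxp3 and Cd8 UMIs (48561 UMIs, of which 1 was Foxp3) carried 246 Il5, 202 Il13 and 89 Il4 UMIs, together with 91 of Areg and 9 of Gata3. A female other Cd4 cell held 102 Il13 and 217 Areg UMIs, which was 73.3% of the Areg UMIs of that class in the female library. All 53 Il13 UMIs of Treg cells came from 1 male Klrg1-negative barcode, which also had 174 UMIs of Csf2, 47 of Il2 and 25 of Ifng, with 1 of Foxp3 and 0 of Ikzf2. The ratios of Il13 thus rest on single barcodes: Treg over other Cd4 cells was -2.07, with 0 against 114 UMIs in the female library and a ratio of -0.19 in the male library.

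Against Cd8 cells, 7 of the 8 genes were at least 1.5-fold higher in Treg cells and 1, Il5, was lower, with 20.5% of measured genes higher and 10.2% lower. The log2 ratio was 5.76 for Il10, 4.88 for Maf, 4.61 for Il1rl1, 3.65 for Areg, 1.86 for Penk and 0.99 for Gata3. Il13, at 3.87, came from the single cell above, and Il5 was at least 1.69-fold lower. For Il5, 51 of the 67 UMIs of Cd8 cells lay in 1 barcode, without which their level of 0.272 CPM was under the limit of 0.675 CPM for Treg cells, so that no direction is left. Scaling by edgeR's trimmed mean of M-values (TMM) would lower every ratio over Cd8 cells by 0.15 and every ratio over barcodes with Foxp3 and Cd8 by 0.14. It changed no direction and took Gata3 over those barcodes to 0.53, under 1.5-fold.

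Barcodes with both Foxp3 and Cd8 UMIs had lower levels than Treg cells but more UMIs per barcode. In all, 7 of the 8 genes were at least 1.5-fold higher in Treg cells and Il5 was lower, with 18.2% of measured genes higher and 8.77% lower. All 246 Il5 UMIs of these barcodes were in the single female barcode described above. The log2 ratio of Treg cells over these barcodes was 2.26 for Il1rl1, 1.80 for both Il10 and Maf, 1.56 for Areg, 1.02 for Penk and 0.66 for Gata3. Without barcodes above 20000 UMIs, Penk stood at 0.40 and Gata3 at 0.10, and the other values were 1.19, 0.81, 1.02 and 1.15 for Il1rl1, Il10, Maf and Areg. Per barcode, these held 9.62 Areg UMIs, against a sum of 6.17 for the mean Treg cell and the mean Cd8 cell, and 9.46 Penk UMIs against 5.48. Il1rl1 had 0.402 against 0.391, and Foxp3 itself 5.0 against 4.66. All genes together had 40652 UMIs per barcode against 21756. Whether these barcodes are single cells or pairs of cells cannot be told apart from the counts.

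Shares of cells with a UMI depend on depth, so each cell was thinned to 2977 UMIs, and shallower cells were left out (49 of the 578 Treg cells). Thinned, Areg was detected in 38.7% of Treg cells (34.5% to 43.0%), against 8.58% of other Cd4 and 4.22% of Cd8 cells, with 43.3% in Klrg1-positive and 32.1% in Klrg1-negative Treg cells. Il10 was detected in 18.7% of Treg cells (15.5% to 22.3%), against 3.42% of other Cd4 and 0.465% of Cd8 cells. Il1rl1 was found in 9.48% of Treg cells (7.12% to 12.3%), against 3.42% and 0.475%. Maf was found in 58.6% (54.3% to 62.9%), against 26.7% and 3.30%. For these genes the order of shares followed the order of levels. Penk differed, because its thinned share was highest in barcodes with Foxp3 and Cd8 (22.5%), with 15.2% of Treg, 4.32% of other Cd4 and 6.75% of Cd8 cells. Gata3 was found in 24.1% of Treg and 24.5% of other Cd4 cells. Before thinning, the shares in Treg cells were 46.2% for Areg, 27.3% for Il10, 15.4% for Il1rl1, 72.8% for Maf, 16.8% for Penk and 43.8% for Gata3. Barcodes with Foxp3 and Cd8, the deepest class, then had the highest share of each of these 6 genes, at 62.7%, 39.1%, 21.0%, 83.4%, 47.8% and 81.5% in the same order.

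**Figure D2:**
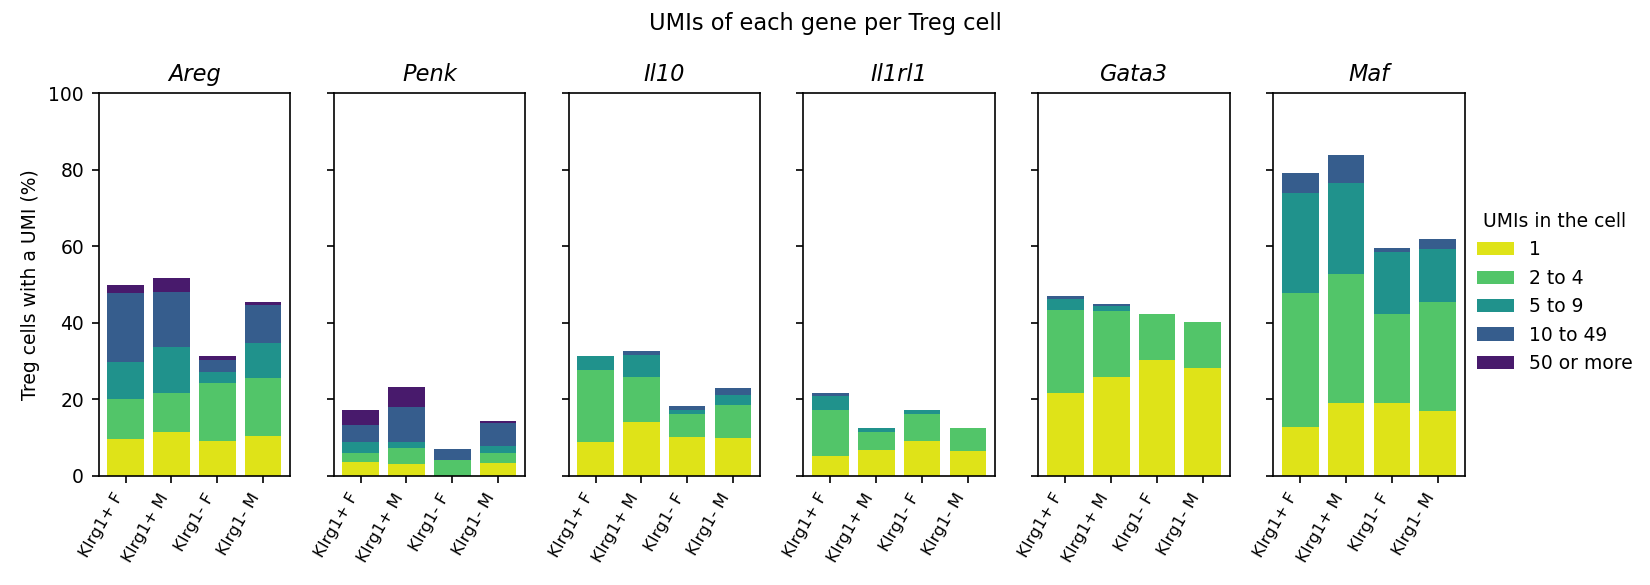
Share of Treg cells (y axis, percent) by the number of UMIs of each gene in the cell, for Klrg1-positive and Klrg1-negative Treg cells, with the female and the male library shown apart. Over both libraries, Penk and Areg had a long tail of rich cells, with means of 21.7 and 11.7 UMIs per positive cell, while positive cells of Gata3 had a median of 1.

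Klrg1-positive Treg cells had more Penk, Areg and Maf than Klrg1-negative ones. These 3 of the 8 genes were at least 1.5-fold higher and 1, Il13, was lower, with 6.09% of measured genes higher and 9.22% lower. Penk was highest of the 3, with a log2 ratio of 1.80 (1.63 to 1.97), 2.75 for female and 1.49 for male cells. Areg had 0.86 (0.75 to 0.98), with 1.58 for female and 0.51 for male cells, and Maf had 0.64 (0.49 to 0.79), with 0.72 and 0.57. Gata3 (0.51), Il1rl1 (0.50) and Il10 (0.39) did not reach 1.5-fold over both libraries. In the male library alone Areg and Maf did not reach it either. Of these, Il1rl1 was higher in Klrg1-positive cells of the female library (1.08) and lower in the male library (-0.23).

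The female Klrg1-negative class held 2 barcodes with many keratin UMIs, which touch each of these ratios. One had 139731 UMIs with 667 of Krt8 and Krt18, 8 of Foxp3 and 19 of Cd3 genes. The other had 96308 UMIs with 636 keratin, 1 Foxp3 and 0 Cd3 UMIs. They gave 16.3% and 11.2% of the UMIs of that class and together 0 UMIs of Areg, Il1rl1 and Penk, 1 of Il10, 1 of Gata3 and 4 of Maf. Without them the log2 ratio of Klrg1-positive over Klrg1-negative cells was 1.60 for Penk, 0.66 for Areg, 0.46 for Maf, 0.30 for Il1rl1 and 0.20 for Il10, so that Maf did not reach 1.5-fold. Below 20000 UMIs, Areg stood at 804 CPM in female and 992 CPM in male Klrg1-positive cells, against 346 and 715 CPM in Klrg1-negative cells. Penk there stood at 476 and 792 CPM, against 91.5 and 325 CPM. Both genes remained higher in the Klrg1-positive class of each library.

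By the rule for named genes, the highest in the Klrg1 split were Ifitm1, an interferon-induced membrane protein gene (441 against 2 UMIs), the MHC class II genes H2-Aa (log2 2.76), H2-Eb1 (2.74) and H2-Ab1 (2.31), and the granzyme gene Gzmc (1.98). Few of the 578 Treg cells carried them: Ifitm1 was found in 17, H2-Aa in 20, Gzmc in 28, H2-Eb1 in 62 and H2-Ab1 in 68. In 1 cell each lay 185 of the 443 Ifitm1 UMIs and 79 of the 119 Gzmc UMIs. The dendritic cell list, to which H2-Aa belongs, summed to 1214 CPM in Klrg1-positive and 469 CPM in Klrg1-negative Treg cells. Of its 5 markers, 2 were detected in Klrg1-positive cells, with Flt3, Xcr1 and Itgax at 0, and 4 in Klrg1-negative cells, with Itgax at 0. Its part in these ratios was not tested. The lowest were Ccl2, Lyz2, Wfdc2 and Anxa3, with 1 UMI each in Klrg1-positive cells, and the chemokine gene Ccl1 with 0 against 239 UMIs. These low values rest on few barcodes: each gene was found in 1 to 4 Treg cells, Lyz2 had 305 of its 307 UMIs in 1 female cell, Ccl2 had 341 of 412 in 1 cell, and all of Ccl1 lay in 1 male cell. Ccl1 had 0 UMIs in female and Wfdc2 and Anxa3 had 0 in male Treg cells, so that each of these 3 has a direction in 1 library only. Of the tissue Treg programme, 5 of 23 measured genes were higher and 1 lower. That list holds none of the 8 genes but includes Klrg1, which is higher by the rule of the split. Of the resting Treg list 1 of 9 was higher and 4 lower (median -0.58).

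Between the sexes, Treg cells of the female library had more Il1rl1 and less Penk, Il10 and Areg than those of the male library. At least 1.5-fold, 1 of the 8 genes was higher and 4 were lower, the fourth being Il13 with its single male cell, while 7.3% of measured genes were higher and 6.37% lower. Il1rl1 was at 62.9 CPM in female and 34.4 CPM in male Treg cells, a log2 ratio of 0.87 (0.46 to 1.29). The ratio was 1.34 (0.82 to 1.88) in Klrg1-positive and 0.02 in Klrg1-negative cells, and the difference between these was not tested. Penk was at 274 CPM in female and 638 CPM in male Treg cells (log2 -1.22, -1.36 to -1.08), Il10 at 76.4 and 129 CPM (-0.76, -1.04 to -0.47) and Areg at 518 and 849 CPM (-0.71, -0.82 to -0.60). Maf had -0.33 and Gata3 0.02, both within 1.5-fold.

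Split by Klrg1, the ratio of female over male Treg cells for Il10 was -0.46 in Klrg1-positive and -1.303 in Klrg1-negative cells. For Areg it was -0.41 and -1.48, and for Penk -1.0 and -2.26, and none of these differences was tested. Outside Treg cells, Il10 was lower in the female library as well, with -0.74 in barcodes with Foxp3 and Cd8, -1.0 in other Cd4 and -0.67 in Cd8 cells. Penk was lower also in Cd8 cells (-1.19) and was at 0.16 in other Cd4 cells. Areg was at -0.23, 0.05 and -0.13 in the same 3 classes, each within 1.5-fold. Il1rl1 was at 0.83 in barcodes with Foxp3 and Cd8 and at 0.05 in other Cd4 cells. Without the 2 keratin-rich barcodes, which are both female, Areg stood at -0.53, Il10 at -0.58 (each under 1.5-fold), Penk at -1.04 and Il1rl1 at 1.05. Leaving out barcodes with 2 or more UMIs of other cell types' markers brought Penk to -0.38.

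**Figure D3:**
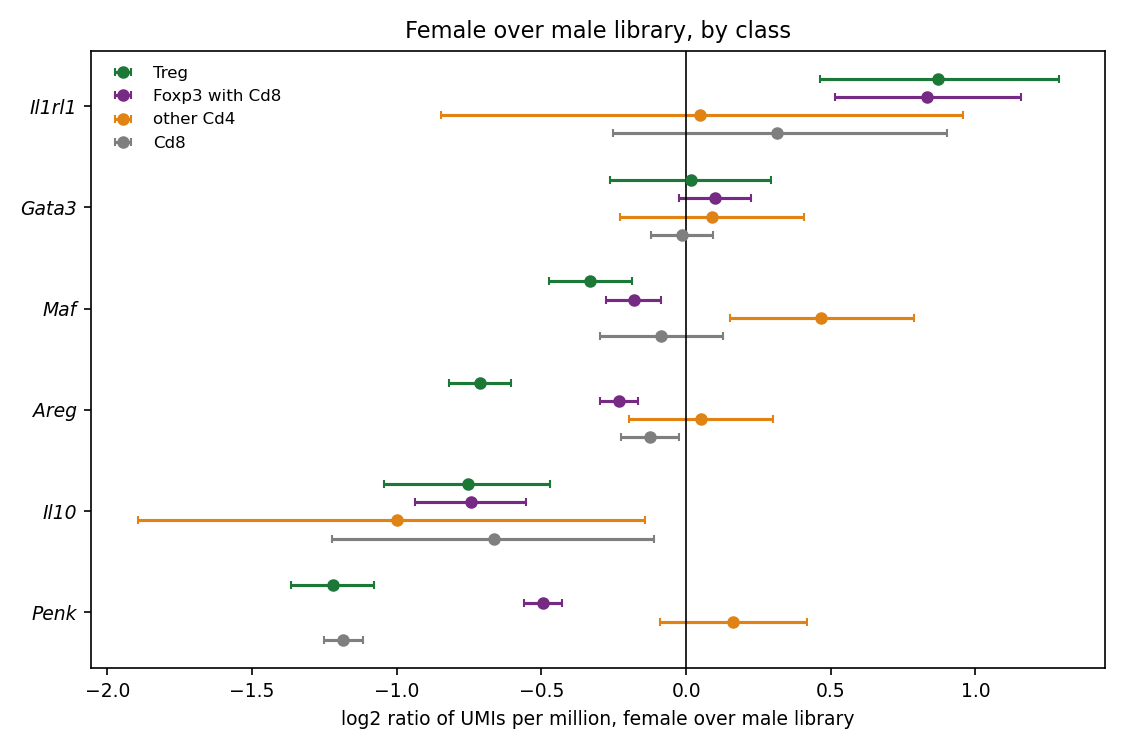
Log2 ratio of female over male CPM for each gene and class, with exact 95% intervals. Il10 was below 0 in every class shown, Il1rl1 was above 0 in Treg cells (0.87), and Penk was below 0 in Treg (-1.22) and Cd8 cells (-1.19) and not in other Cd4 cells (0.16).

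Marker sums of other cell types also differed between the Treg cells of the libraries. The macrophage or monocyte list summed to 181 CPM in the female library and 26.2 CPM in the male one, with 6 and 4 of 6 markers detected and C1qa and C1qb at 0 in the male library. The tumour keratin list summed to 662 and 22.5 CPM, with 3 of 5 detected and Krt7 and Krt19 at 0. The mast cell list summed to 3.99 and 5.73 CPM, with 1 and 2 of 7 markers detected. The list of group 2 innate lymphoid cells, which holds Il1rl1 and Gata3 themselves, summed to 852 and 1012 CPM, with 6 of 8 detected in each library. The mast cell markers Cpa3, Fcer1a, Ms4a2, Mcpt4 and Tpsb2 and the innate lymphoid markers Il17rb and Ptgdr2 were at 0 in both libraries. The summed level of 12 measured immediate early genes was 4409 CPM in female and 5580 CPM in male Treg cells, and 5 of the 12 were lower in the female library and 0 higher (median -0.50). The part of these in the sex ratios was not tested beyond the values without the barcodes above. The rule for named genes gave Krt8 (616 against 1 UMI), Ccl2, Lyz2, Cxcl1 and Sox9 as highest in the female library. It gave Ccl1, Csf2 (6 against 187), Il13, Il2 and Gzmc as lowest. Apart from Gzmc, found in 28 Treg cells, each of these named genes was found in 1 to 5 Treg cells.

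The genes were next counted cell by cell. Of Areg, Penk, Il10 and Il1rl1, 29.4% of Treg cells had none, 41.0% had 1, 24.4% had 2, 4.84% had 3 and 0.346% (2 cells) had all 4. In other Cd4 cells 76.0% had none of the 4, and in Cd8 cells 81.1%. Over all 8 genes no Treg cell had more than 6, and 32 cells (5.54%) had none. Most Treg cells thus had a UMI of at least 1 of the 4 genes, in different combinations. At this depth a gene can be missed in a cell that has its RNA, so the combinations are those of detection.

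To read the combinations, the number of Treg cells with UMIs of both genes of a pair was set beside the number that the separate shares would give within each library and each of 5 groups of depth. Il1rl1 and Il10 stood apart from the other pairs. There were 12 Treg cells with both, against 24.6 from the shares, 6 against 12.1 in the female and 6 against 12.5 in the male library. The shortfall was present in Klrg1-positive (8 against 17.1) and Klrg1-negative cells (4 against 7.73), and in cells at or below the median depth (4 against 9.04) and above it (8 against 15.9). This was the only 1 of 15 pairs with at least 5 such cells by the shares that was more than 1.5-fold off. In barcodes with Foxp3 and Cd8 the pair was less short, with 58 against 69.6.

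Il1rl1 was found more often with Gata3 and with Areg. Il1rl1 and Gata3 were together in 58 cells against 42.7 (30 against 22.3 female, 28 against 20.4 male), so that 65.2% of Il1rl1-positive Treg cells had a Gata3 UMI. Areg and Il1rl1 were together in 58 cells against 42.2 (26 against 19.5 female, 32 against 22.7 male). Il10 was found with Maf in 131 cells against 115, and 82.9% of Il10-positive Treg cells had a Maf UMI. None of these 3 reached 1.5-fold in Treg cells. Areg and Il10 were together about as often as their shares give, 70 against 73.4. Outside the Treg cells, Il10 and Maf were together in 18 other Cd4 cells against 8.56 and in 35 Cd8 cells against 9.39, and Areg and Il1rl1 in 28 Cd8 cells against 13.3.

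**Figure D4:**
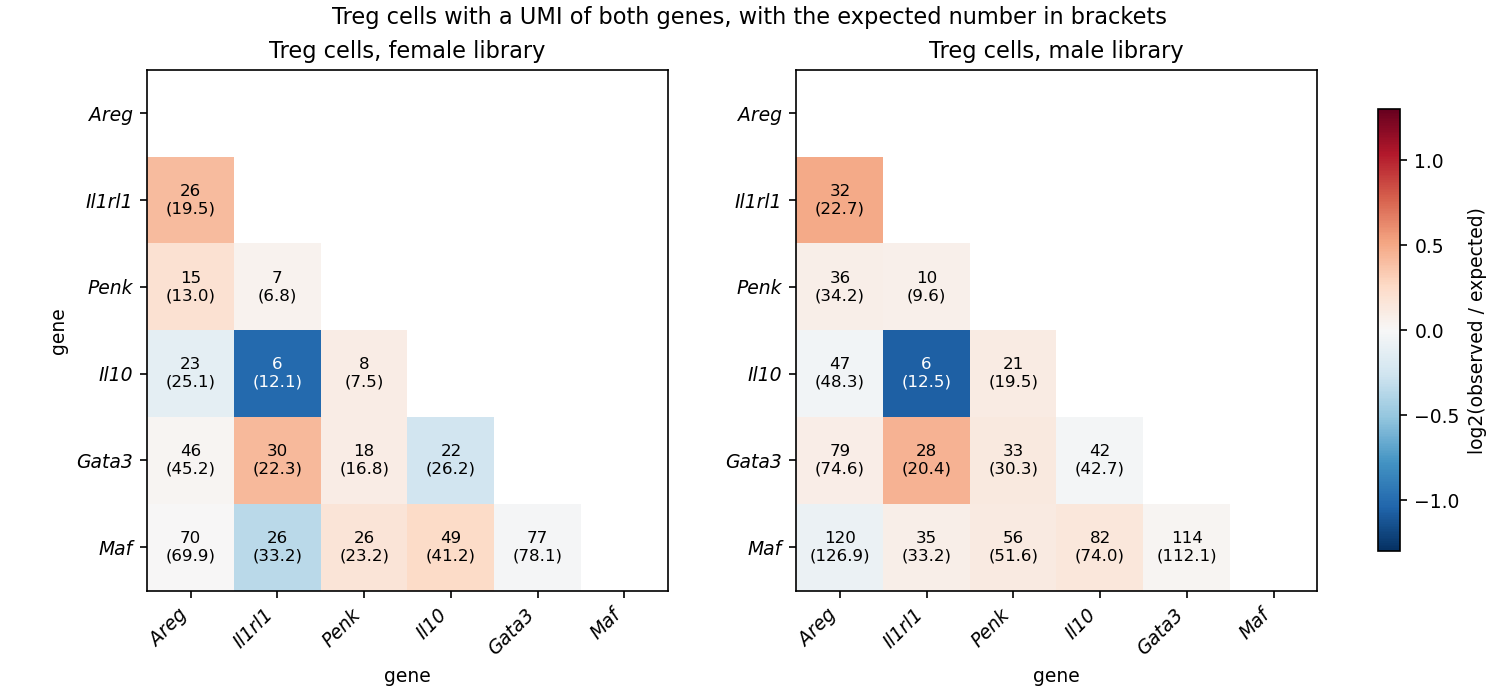
Number of Treg cells with a UMI of both genes of a pair, with the number given by their separate shares within library and depth group in brackets, for the female and the male library. Colour gives the log2 of observed over that number, and Il1rl1 with Il10 was low in both libraries (6 against 12.1 and 6 against 12.5).

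The 77 Treg cells with Il1rl1 and no Il10 UMI (40 female, 37 male) and the 146 with Il10 and no Il1rl1 UMI (54 female, 92 male) were then set side by side. This split and the further genes named for it were chosen after their values were seen. The median depth was 7619 UMIs in the first and 6002 in the second. Gata3 was at 159 CPM in the Il1rl1 cells and 71.6 CPM in the Il10 cells (log2 1.15, 0.72 to 1.59), with 1.32 for female and 1.02 for male cells. Maf was at 229 CPM in the Il1rl1 cells and 461 CPM in the Il10 cells (log2 -1.01, -1.29 to -0.74), with -0.84 and -1.14. Gata3 was thus higher where Il1rl1 was detected and Maf where Il10 was detected, in both libraries. The Maf ratio was -1.27 (-1.61 to -0.94) in Klrg1-positive and -0.32 (-0.81 to 0.15) in Klrg1-negative cells, and the difference between these was not tested. Gata3 in Klrg1-negative cells was at 0.90 (-0.02 to 1.83), from 23 and 21 UMIs. In Klrg1-negative cells the intervals of both genes thus held 0.

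Some activation and division genes also differed between these cells. Jun, a subunit of the AP-1 factor, was at 89.9 CPM in the Il1rl1 cells and 502 CPM in the Il10 cells (log2 -2.48, -2.90 to -2.09), with -2.44 for female and -2.41 for male cells. Fos, another immediate early gene, had a log2 ratio of -0.53 (-0.75 to -0.31). Its direction changed with depth, from -2.37 at or below the median depth to 0.61 (0.32 to 0.89) above it. Nr4a1, a gene induced by T cell receptor signals, was at 846 and 425 CPM (0.99, 0.81 to 1.17), but at or below the median depth it was at 0.08. Mki67, a marker of dividing cells, was at 99.4 and 23.6 CPM (2.07, 1.41 to 2.77), from 63 and 28 UMIs. At or below the median depth it had only 3 and 4 UMIs (0.90, -1.87 to 3.46). In Klrg1-negative cells its ratio was 1.06 (-0.35 to 2.51). Foxp3 was within 1.5-fold over both libraries, at a log2 ratio of 0.33, but was at 0.82 (0.51 to 1.12) in Klrg1-negative cells. Ikzf2 was at 0.46, with 0.98 for female and 0.17 for male cells.

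Areg and Penk went opposite ways in the libraries. In the female library Areg was at 738 CPM in the Il1rl1 cells and 358 CPM in the Il10 cells (log2 1.05, 0.76 to 1.33), and in the male library at 557 and 1073 CPM (-0.95, -1.19 to -0.71). Penk had 0.77 (0.35 to 1.19) in the female library and -0.44 (-0.81 to -0.07) in the male one. The intervals of the libraries did not overlap for either gene, and since both genes sit in few rich cells, intervals for counting error are narrower than the spread between cells.

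**Figure D5:**
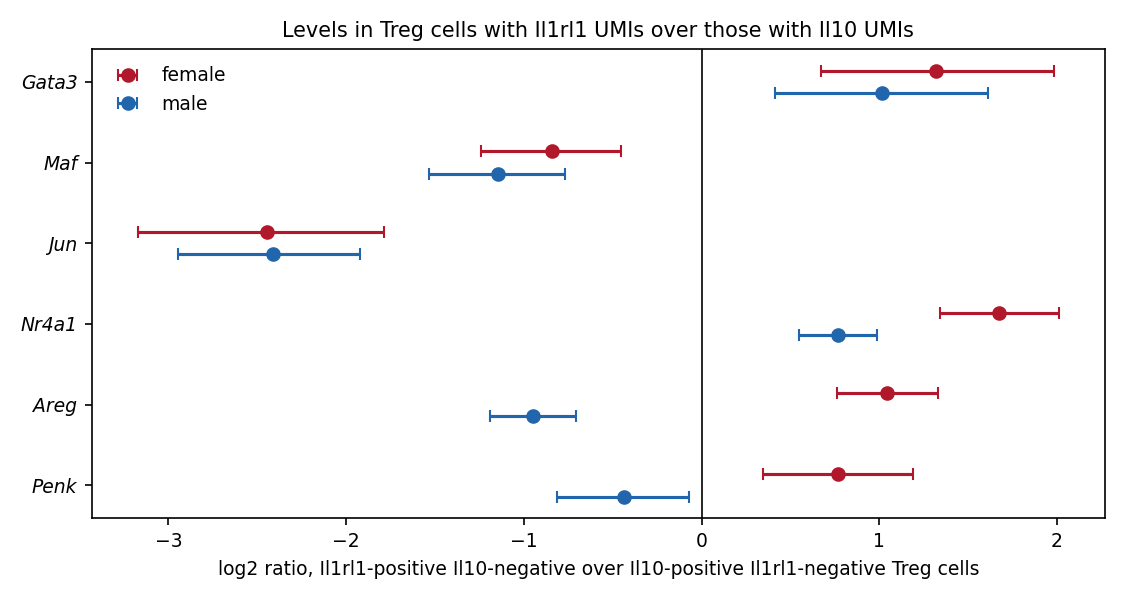
Log2 ratio of CPM in Treg cells with Il1rl1 and no Il10 UMI over Treg cells with Il10 and no Il1rl1 UMI, for the female and the male library, with exact 95% intervals. Gata3 lay above 0 and Maf and Jun below 0 in both libraries, and Areg was at 1.05 for female and -0.95 for male cells.

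Penk-positive Treg cells were also set beside Penk-negative ones. Among genes with the highest ratio in Penk-positive over Penk-negative Treg cells, Pcsk1, which encodes a proprotein convertase that cuts proenkephalin and other prohormones, came first. It had 30 UMIs in 97 Penk-positive and 20 UMIs in 481 Penk-negative Treg cells, a log2 ratio of 2.55 (1.69 to 3.45). In the female library 5 of 30 Penk-positive (16.7%) and 7 of 203 Penk-negative cells (3.45%) had a Pcsk1 UMI, and in the male library 8 of 67 (11.9%) and 6 of 278 (2.16%). The direction was the same in both, with log2 ratios of 2.33 (1.0 to 3.63) and 2.88 (1.62 to 4.28). The median depth was 7668 UMIs with Penk and 5967 without. In barcodes with Foxp3 and Cd8 the ratio was 0.06, from opposite values of 1.01 (0.20 to 1.86) for female and -0.70 (-1.39 to -0.0011) for male ones, and in Cd8 cells 0.53 (-0.87 to 1.79). The next genes with Penk were Serpinb1a (2.40, with 72.1% of its UMIs in 1 cell), Gda, Hsbp1l1 and Mettl5.

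The same rule gave dividing-cell genes with Il1rl1, namely Kif11 (log2 2.44), Aurkb (2.38), Ube2c (2.35) and the histone gene Hist1h2ap (2.25, 50% in 1 cell), after Ltf, of which 74.3% of UMIs lay in 1 cell. With Areg it gave Gzmc (3.18, 74.5% in 1 cell), Fcer1g (2.58), Cd14 (75.8% in 1 cell), Penk (1.53) and Acod1. With Il10 it gave Cxcl3 and Ccl2, with 91.4% and 99.1% of their UMIs in 1 cell, then Ifitm1 (3.18, 52.4% in 1 cell), Il1b and Spp1 (96.8% in 1 cell). With Gata3 it gave Lyz2 and Csf2, nearly all in 1 cell each, the replication genes Clspn (3.10) and Pclaf (2.98), and Cd14 (65.8% in 1 cell). With Maf it gave Hsbp1l1 (2.57), Myb (2.07), Serpinb1a, Ccr1 (2.01) and Nckap5. Several of these values thus rest on single barcodes.

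Around the 8 genes, lists of related genes showed which parts of the programme Treg cells carried, relative to other Cd4 cells. These lists include some of the 8 genes themselves. Of the tissue Treg programme, 16 of 23 measured genes were at least 1.5-fold higher and 1 lower (median 1.51, against 0.08 over all genes). Among them were Itgae, the integrin chain CD103 (log2 4.05), Gzmb, granzyme B (3.77), Dgat2, a triglyceride synthesis enzyme (3.51), and Klrg1 (2.58). Of the resting Treg list, 6 of 9 genes were lower and 1 higher (median -1.38), with Tcf7 at -3.80, Bach2 at -2.31 and S1pr1 at -1.67. Of type 2 cytokines, receptors and factors, 5 of 10 measured were higher and 1 lower (median 0.69), with the eotaxin receptor gene Ccr3 at 127 against 1 UMI, Nfil3 at 1.57 and Ccr8 at 1.35. Of 7 EGF receptor ligands only Areg and Hbegf were measured, and both were higher. Hbegf, with 122 against 4 UMIs, had a log2 ratio of 6.39 for female and 1.59 for male cells. Among Treg cells it was at least 1.5-fold higher in female than in male cells. It was at least 1.5-fold lower in Klrg1-positive than in Klrg1-negative ones. Whether few barcodes held its UMIs was not tested. Of the opioid list, Oprm1, the mu opioid receptor gene, had 0.56 (-0.05 to 1.19) beside Penk.

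Among other Cd4 cells, those with a UMI of Areg, Il10, Il1rl1 or Penk carried more Ikzf2 and Il2ra than those without. The 55 with Areg had Il2ra at 228 CPM, against 41.9 CPM in those without (log2 2.44), and Ikzf2 with a ratio of 1.26. They also had more Cd40lg (1.02), a gene of conventional T cells. Ifng, another such gene, had a ratio of 0.59, but 1 male cell held 27 of the 62 Ifng UMIs of these 55 cells. Whether the direction of Ifng holds without that cell was not tested. The 23 with Il10 had ratios of 2.28 for Il2ra and 2.01 for Ikzf2, and 1 UMI of Ifng against 359 in cells without Il10. Il1rl1-positive ones had an Il2ra ratio of 1.90 and Penk-positive ones an Ikzf2 ratio of 0.85. Maf-positive ones had more Ikzf2 (1.49) and more Ifng (1.18). Gata3-positive ones did not differ from the others by 1.5-fold in Ikzf2 (0.03, -0.27 to 0.32) or Il2ra (0.10, -0.33 to 0.53). They had more Cd40lg (0.74, 0.44 to 1.03) and Tnfrsf4 (0.69, 0.58 to 0.80). Foxp3 was at 0 in all of them by the rule.

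Levels over the 10 points of 5 classes and 2 libraries were also compared with those of 6849 genes by Pearson's r of log2(CPM + 1), as a description in which the points share libraries. Closest to Il10 was Itgb8 (r = 0.992), an integrin chain that activates TGF-beta, followed by Cass4 (0.977). Closest to Areg were Mcu (0.990) and Slc15a3 (0.989), to Maf Sema4b (0.980), to Il1rl1 Got1 (0.983), to Gata3 Itpk1 (0.979) and to Penk Helb (0.943). Il13 was closest to Il21 (0.914) and Il5 to Rexo2 (0.819). Among the 8, Areg and Il10 had r = 0.971, Il10 and Maf 0.964, and Il1rl1 and Il10 0.897. Il1rl1 and Il10 thus followed each other across classes although they were found together in fewer Treg cells than their shares give. Il1rl1 and Penk had the lowest value named here, 0.396.

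In the annotation on GRCm38 the genes lie at chr5:91139599-91148432 (Areg, ENSMUSG00000029378), chr1:40429570-40465415 (Il1rl1, ENSMUSG00000026069), chr4:4133531-4138819 (Penk, ENSMUSG00000045573), chr11:53720794-53725106 (Il5, ENSMUSG00000036117), chr11:53631324-53634702 (Il13, ENSMUSG00000020383), chr1:131019845-131024974 (Il10, ENSMUSG00000016529), chr2:9857078-9890034 (Gata3, ENSMUSG00000015619) and chr8:115682942-115707794 (Maf, ENSMUSG00000055435). Penk, Il5, Gata3 and Maf overlap other annotated genes, and whether the counting used strand was not given in the sources used here. Those genes had 1, 0, 6 and 2 UMIs in Treg cells, with the 3 that overlap Gata3 summed.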

How the data were processed

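Per the file headers, the authors deposited Cell Ranger 7.0.1 output, a matrix of raw counts of UMIs for every gene in every barcode. The submitters' processing notes also name GRCm38 and Seurat 5, with no role stated. The 8 genes, the lists, the cell classes and the alternatives were chosen with earlier results of these data known.

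All further values were computed with Python 3.11.15, numpy 2.4.6, scipy 1.17.1 and pandas 2.3.3, and edgeR 4.0.16 for TMM. The matrices held 55880364 UMIs in 3658 barcodes (female) and 50946624 in 3708 (male). The libraries shared 16 barcode sequences, 12 of them among kept barcodes. No doublet caller was run, and barcodes with Foxp3 and Cd8 UMIs formed a class of their own. Counts were summed per class and library, divided by the class total, and set against each other as log2 ratios, whose 95% intervals are exact for 2 Poisson counts. Counts of 0 were replaced by 3. Shares have Clopper-Pearson intervals, and thinned shares are the exact mean over all draws to the 10th percentile of depth (2977 UMIs). Genes under 10 CPM in both classes, or under 20 UMIs in total, were not counted as measured. Every result pools cells of 1 library per sex, so no test or p-value was made. UMIs are not split by the mice they came from, so intervals cover counting error only.

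All 8 genes were described. Further genes were named by rule: up to 4 per list with the largest ratio of Treg to other Cd4 cells and at least 50 UMIs, and the 5 highest (for the Klrg1 and sex comparisons also the 5 lowest) with at least 20 CPM, 50 UMIs, the same sign in both libraries (with counts of 0 set to 3, which alone gave Ccl1, Wfdc2 and Anxa3 a sign in 1 library) and an interval bound at least 1.25-fold from 1. The steps were tested on simulated Poisson counts, and intervals held the true ratio for 95.7% of 8142 genes in the comparison of Treg with other Cd4 cells. Since the simulated counts were Poisson, this checks the computation only. It cannot show how well the intervals hold for real counts, which are uneven between cells. Gene coordinates came from GENCODE M21, in which 32158 of 32285 identifiers (99.6%) were found. The values of 1 gene that the naming rule gives are not reported here.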

Additional observations from a re-analysis of the deposited data

Results flagged for a closer look

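Of the ratios of the 8 genes and of Pcsk1, 4 went opposite ways in the libraries with intervals that left out 0 in each, and none of these differences was tested. Among Treg cells, the log2 ratio of Areg in cells with Il1rl1 and no Il10 UMI over cells with Il10 and no Il1rl1 UMI was 1.05 for female and -0.95 for male cells, a difference of 1.99. For Penk the same ratio was 0.77 for female and -0.44 for male cells, a difference of 1.20. Il13 in Treg cells over barcodes with Foxp3 and Cd8 was at -3.18 in the female library, with 0 Treg UMIs set to 3, and at 4.98 in the male library, a difference of -8.16. Pcsk1 in barcodes with Foxp3 and Cd8, with Penk over without Penk, was at 1.01 (0.20 to 1.86) for female and -0.70 (-1.39 to -0.0011) for male barcodes, a difference of 1.71. The Il13 values come from 1 female barcode with 202 of the UMIs and 1 male Treg cell with 53.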

How the results depend on the processing

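The count of genes at least 1.5-fold apart was 7 of 8 for Treg over other Cd4, 8 over Cd8, 8 over barcodes with Foxp3 and Cd8, 4 for the Klrg1 split and 5 for sex. Over barcodes with Foxp3 and Cd8 it was 5 without barcodes above 20000 UMIs. For the Klrg1 split it was 2 without barcodes that had 2 or more UMIs of other cell types' markers. For sex it was 3 with at least 2 Foxp3 UMIs asked of Treg cells, 3 with equal weight per cell, 3 without barcodes above 20000 UMIs, 3 without those with other markers, and 3 without the 2 keratin-rich barcodes, an alternative chosen after seeing the data. Klrg1-positive Treg cells had the highest share for 5 genes after thinning and for 0 without it. With 1 library alone, the count ranged from 6 to 6 over other Cd4, 6 to 7 over Cd8, 7 to 7 over barcodes with Foxp3 and Cd8, and 2 to 6 for the Klrg1 split, where the male library alone gave 2. Il13 reversed over Cd8 cells with at least 2 Foxp3 UMIs (-0.10) and over barcodes with Foxp3 and Cd8 in the female library alone (-3.18), and both rest on single barcodes. Of 460 alternative values of single genes' ratios, 295 stayed within the counting interval, 163 left it and 2 reversed. Without a filter on low counts the share of all genes past 1.5-fold was 50.3% over other Cd4 cells, against 27.9% with it, and 36.4% against 15.3% for the Klrg1 split. The cause of these changes was not tested. No paired analysis was possible because there is 1 library per sex. Depth limits detection: over the 5 groups of depth the share of Treg cells with a UMI was 7.76% in the shallowest and 25.0% in the deepest for Penk, 10.3% and 25.0% for Il1rl1, and 27.6% and 64.7% for Gata3.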
